A study of Mus musculus with 12 samples.

Results

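This report covers 8 mouse genes of folate metabolism that methotrexate (MTX) acts on or depends on: Tyms, Atic, Gart and Shmt2, the polyglutamation pair Fpgs and Ggh, and the carriers Slc19a1 and Slc46a1. They were chosen by name, for their known roles, with earlier results of these data known. All 8 were found among the 49315 genes of the count table, had reads in every library and passed the filter on low counts. RNA was sequenced from epididymal white adipose tissue (eWAT) of male mice, in 12 libraries, 3 in each of 4 groups. Each library is read here as 1 mouse, which the methods do not state. Control mice carried loxP-flanked alleles of the miRNA locus, miR-181a2b2flox/flox (flox), and the comparison mice lacked the locus in the whole body, miR-181a2b2-/- (KO). All mice had a high-fat diet (HFD) with 60% of the energy as fat for 12 weeks and a weekly intraperitoneal injection of vehicle or of MTX at 1 mg/kg. The methods describe age-matched littermates and give no age for these mice. Libraries are named here by group and by the replicate number in their title, as in flox vehicle replicate 3.

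Folate carries single carbon units from serine and glycine to the synthesis of thymidylate, purines and methionine. MTX is a folate analogue that enters cells through folate carriers, is lengthened by a chain of glutamates that holds it inside the cell, and in that form blocks enzymes of thymidylate and purine synthesis as well as the regeneration of reduced folate. At low doses, as in the treatment of arthritis, block of Atic and release of adenosine are held to be part of its anti-inflammatory action.

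The genes lie on 7 chromosomes of the mouse build GRCm38, and all are protein coding in GENCODE release M21. Tyms is at chr5:30058202-30073617 on the minus strand, Atic at chr1:71557150-71579631 on the plus strand and Gart at chr16:91621186-91646952 on the minus strand. Shmt2 is at chr10:127517123-127522444 on the minus strand, Fpgs at chr2:32682609-32704145 on the minus strand and Ggh at chr4:20042052-20066750 on the plus strand. Slc19a1 is at chr10:77032241-77061002 and Slc46a1 at chr11:78465697-78472059, both on the plus strand. Promoters from RefSeq (GRCm38.p6, 250 bases before to 50 bases after the transcription start) matched 7 of the 8 genes, all but Ggh. Motif matches are in capitals in the printed sequences, which run 5′ to 3′ on the strand of the gene. The promoters printed are those of the 4 genes called between KO and flox mice under vehicle. They are chr5:30073576-30073875 for Tyms, chr2:32694126-32694425 for Fpgs, chr10:127522395-127522694 for Shmt2 and chr11:78465451-78465750 for Slc46a1. The Fpgs start in RefSeq lies inside the longer GENCODE span of the gene.
Tyms promoter: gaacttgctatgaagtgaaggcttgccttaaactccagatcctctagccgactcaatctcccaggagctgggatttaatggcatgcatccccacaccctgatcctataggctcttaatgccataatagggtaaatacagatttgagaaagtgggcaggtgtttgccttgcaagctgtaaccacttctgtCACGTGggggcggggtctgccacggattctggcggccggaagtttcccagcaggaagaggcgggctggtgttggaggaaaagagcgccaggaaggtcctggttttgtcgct
Fpgs promoter: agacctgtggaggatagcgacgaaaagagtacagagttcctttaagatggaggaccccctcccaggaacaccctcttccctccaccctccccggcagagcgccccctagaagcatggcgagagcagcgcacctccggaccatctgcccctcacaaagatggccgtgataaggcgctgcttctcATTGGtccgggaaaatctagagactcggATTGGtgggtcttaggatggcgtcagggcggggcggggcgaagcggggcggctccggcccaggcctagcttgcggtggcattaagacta
Shmt2 promoter: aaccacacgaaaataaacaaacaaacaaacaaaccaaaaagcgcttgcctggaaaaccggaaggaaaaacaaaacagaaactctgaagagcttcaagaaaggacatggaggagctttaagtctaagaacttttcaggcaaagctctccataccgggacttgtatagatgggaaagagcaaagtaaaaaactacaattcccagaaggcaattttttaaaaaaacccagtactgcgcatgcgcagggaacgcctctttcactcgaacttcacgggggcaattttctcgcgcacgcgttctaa
Slc46a1 promoter: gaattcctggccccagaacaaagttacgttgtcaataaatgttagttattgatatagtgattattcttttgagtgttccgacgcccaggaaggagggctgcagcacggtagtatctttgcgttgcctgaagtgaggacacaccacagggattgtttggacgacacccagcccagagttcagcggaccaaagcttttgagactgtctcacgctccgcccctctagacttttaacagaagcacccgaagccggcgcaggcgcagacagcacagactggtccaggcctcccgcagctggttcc
The search covered 4 motifs on both strands as exact letters. For E2F the letters were TTTNGCGC and for the E-box CACGTG. For the C/EBP-ATF element of amino acid response genes the letters were TGATGNAA, and the last motif was the CCAAT box. The Tyms promoter held an E-box 61 bases before the start, and the Atic promoter held one 7 bases before its start and a CCAAT box 224 bases before it. Fpgs held CCAAT boxes on the opposite strand at 67 and 39 bases before the start, and Gart held one 33 bases before it. No match of the 4 motifs was found in these windows of Shmt2, Slc46a1 or the 2 promoters of Slc19a1. Among 32851 promoters of the same length, 37.4% held a CCAAT box, 7.15% an E-box, 3.97% the C/EBP-ATF letters and 1.38% the E2F letters.

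Depth was 19495310 to 23976469 counts per library (median 21824170), and all 14 adipocyte markers, such as Adipoq and Plin1, by which the tissue label was checked, were above 3 counts in every library. The 3 flox vehicle libraries stood apart from the other 9. Summed over 25 epididymis markers, they held 14408, 5522 and 1821 CPM (read counts scaled to the size of the library) in replicates 3, 1 and 4, against 2.05 to 28.3 CPM in 8 other libraries and 577 CPM in flox MTX replicate 1. Their 10 testis germ cell markers summed to 205 to 593 CPM, against 1.31 to 13.7 CPM elsewhere. Macrophage markers (18 genes) summed to 840 to 1566 CPM in flox vehicle, 6715 to 12761 CPM in KO vehicle, 1293 to 7614 CPM in flox MTX and 9252 to 15382 CPM in KO MTX libraries. In bulk tissue, fewer cells of a type and less RNA per cell cannot be told apart. Called results below that rest on the flox vehicle group are therefore also given without its replicates 1 and 3. In that fit the group is replicate 4 alone, which still carried both sets of markers, and it is assumed to vary like the libraries of the other groups, from which the spread, p and interval then come.

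Levels are CPM scaled with TMM factors, and differences are log2 fold changes of edgeR's quasi-likelihood test. A call needed a fold change of 1.5 or more and a p, adjusted by Benjamini-Hochberg over 18702 genes, below 0.1. In KO against flox mice under vehicle, Tyms, the thymidylate synthase, rose 2.36-fold, whereas Fpgs, Shmt2 and Slc46a1 fell 2.64-, 2.62- and 2.82-fold. MTX in flox mice moved 3 of the genes the same way: Tyms rose 1.84-fold, and Fpgs and Shmt2 fell 3.16- and 2.79-fold. None of the 8 genes was called between KO and flox mice under MTX, or by MTX in KO mice. The comparisons with flox vehicle share those 3 libraries and are not independent of each other.

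Under vehicle, 4 of 8 genes were called, beside 31.7% of all genes tested. The 1 called gene that was higher in KO compares with 13.9% of all genes called higher, and the 3 that were lower with 17.8% called lower. The replicates of the 2 groups did not overlap for 3 genes (Tyms, Gart and Slc46a1), beside 48.1% of all genes. The median log2 fold change of the 8 genes was -0.43, and that of all genes was -0.06. For MTX against vehicle in flox mice, 3 of 8 genes were called, beside 24.2% of all genes tested, 1 of them higher beside 8.09% and 2 lower beside 16.1%. Replicates did not overlap for 2 genes (Tyms and Fpgs), beside 28.3% of all genes, and the median was 0.03 against 0.05 for all genes. A large share of the transcriptome was thus called in both comparisons, and the shares of the 8 genes are read against it.

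Under MTX, edgeR called 0 of 8 genes between KO and flox mice, beside 0% of all genes, with 1 gene at an unadjusted p below 0.05 (Slc19a1) and 0 called by DESeq2. Of all 18702 genes, 4576 were at an unadjusted edgeR p below 0.05 there, and DESeq2 called 2740 of 34600. No gene of the 8 had replicates without overlap, beside 26.8% of all genes. MTX against vehicle in KO mice also gave 0 of 8 calls beside 0% in edgeR, with 0 at an unadjusted p below 0.05 and 0 by DESeq2. For all genes these counts were 1491 of 18702 and 276 of 34600. Replicates did not overlap for 2 of the 8 genes (Atic and Gart), beside 20.7%. The test of the interaction, whether MTX acted differently in KO and flox mice, called 0 of 8 beside 0.989% of all genes. In it, 3 genes had an unadjusted edgeR p below 0.05 (Tyms, Fpgs and Shmt2), beside 2811 of all 18702. DESeq2 called 1, Tyms, beside 1225 of 34600. Without flox vehicle replicates 1 and 3, where that group is 1 library, the median log2 fold change of the 8 genes was -0.215 for KO against flox under vehicle. It was 0.004 for MTX in flox mice and 0.14 in the interaction. The medians of all genes were -0.012, 0.072 and -0.079.

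**Figure D1:**
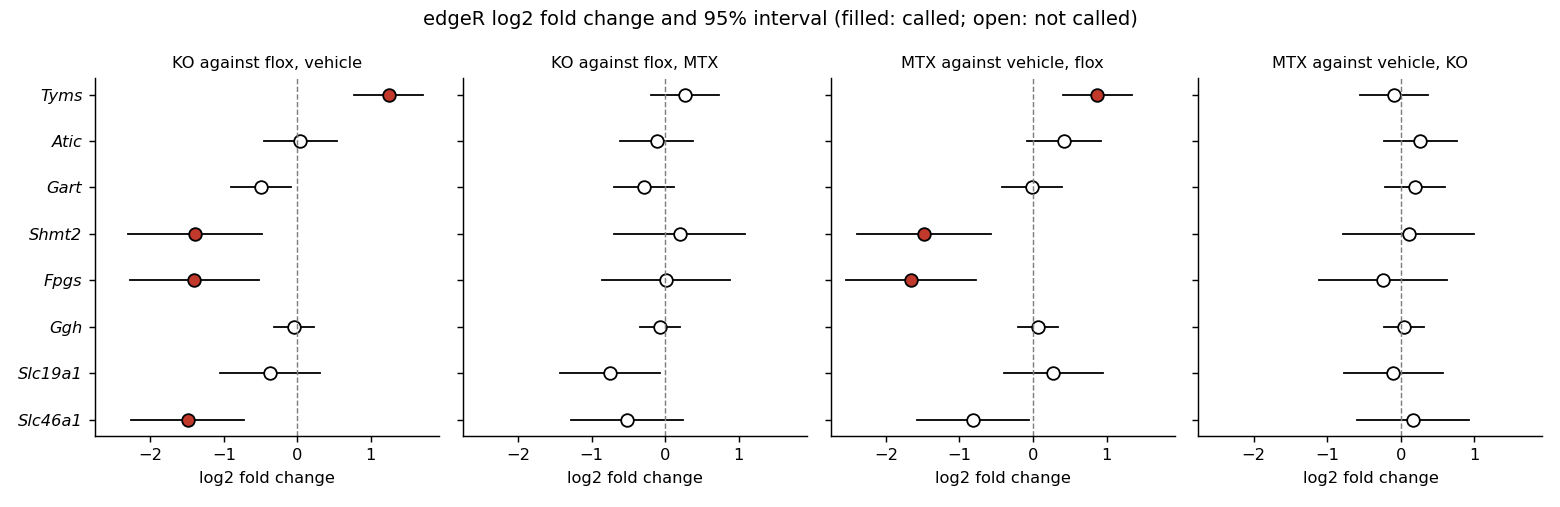
Log2 fold changes (x axis) of the 8 genes in 4 comparisons, with 95% intervals of the edgeR fit as lines. Filled points were called (4 genes in KO against flox under vehicle and 3 in MTX against vehicle in flox mice), and open points were not. Both panels that lack a filled point are those without the flox vehicle group.

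Tyms makes thymidylate for DNA from deoxyuridylate and is a target of MTX polyglutamates. Its level was 4.95, 5.04 and 7.39 CPM in replicates 1, 3 and 4 of flox vehicle, and 13.0, 12.5 and 15.5 CPM in KO vehicle replicates 1, 2 and 3. It was 12.1, 11.0 and 8.75 CPM in flox MTX replicates 1, 2 and 4, and 14.9, 12.1 and 11.5 CPM in KO MTX replicates 2, 3 and 4. All 9 libraries outside flox vehicle were above the highest flox vehicle value. Tyms rose by 1.24 ± 0.22 (SE) on the log2 scale in KO against flox under vehicle (edgeR adjusted p = 0.00356) and by 0.88 ± 0.21 with MTX in flox mice (edgeR adjusted p = 0.0187). The log2 difference was 0.27 between KO and flox under MTX (95% interval -0.19 to 0.74) and -0.09 for MTX in KO mice (-0.55 to 0.37), both with overlapping replicates. The interaction was -0.97 (95% interval -1.63 to -0.31) with an edgeR adjusted p of 0.18, and was called by DESeq2 (adjusted p = 0.0564) and in edgeR without flox vehicle replicate 4 (adjusted p = 0.0511).

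Genes of dividing cells were also lower in flox than in KO libraries. The 19 proliferation markers, among them Mki67, Pcna and the Mcm genes, summed to 167 to 259 CPM in flox vehicle, 464 to 705 CPM in KO vehicle, 252 to 412 CPM in flox MTX and 580 to 741 CPM in KO MTX libraries. All 19 were above 3 counts in every library, 15 were called higher in KO against flox under vehicle, 6 were called higher with MTX in flox mice, and none was called lower in either, beside 13.9% and 8.09% of all genes called higher. Without flox vehicle replicates 1 and 3 the median log2 fold changes of the 19 were 1.18 and 0.38, against 1.53 and 0.61 with all 12 libraries. Within flox MTX, replicate 4 had the lowest Tyms and the lowest proliferation sum, while replicate 1 had the highest Tyms and replicate 2 the highest sum. The median sum was 707.7 CPM in KO MTX and 469.5 CPM in KO vehicle, with mean Tyms of 12.85 and 13.68 CPM. The part of dividing cells in the Tyms difference was not tested. Against flox vehicle replicate 4 alone, the KO vehicle libraries were 0.90 higher on the log2 scale (95% interval 0.29 to 1.5, edgeR adjusted p = 0.105), with no spread from the flox vehicle group, and Tyms was not called. With MTX in flox mice the same value was 0.53 (95% interval -0.06 to 1.12, edgeR adjusted p = 0.461).

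**Figure D2:**
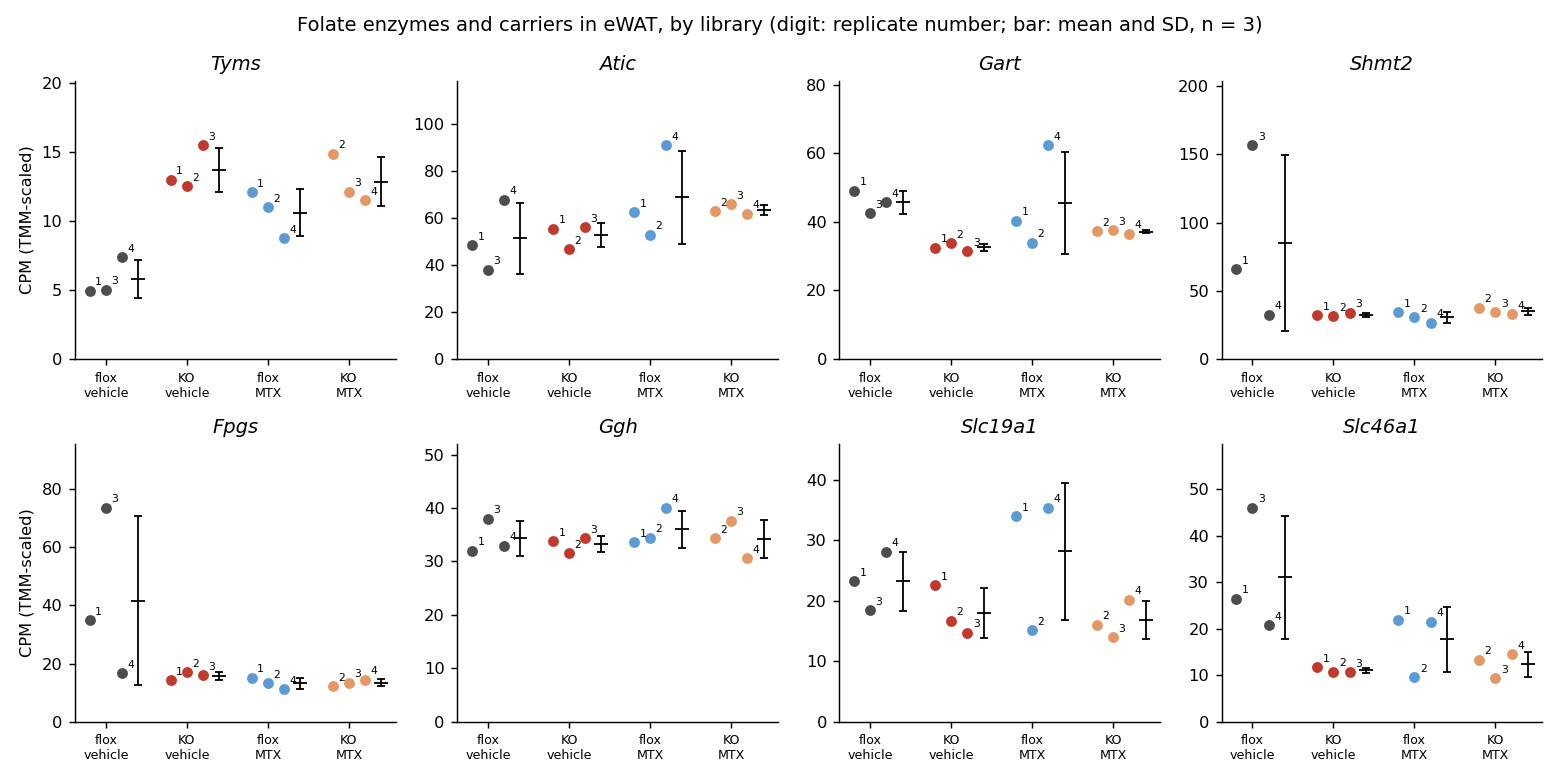
TMM-scaled CPM (y axis, from 0) of the 8 genes in the 12 libraries, by group, with the replicate number beside each point and the mean and SD of 3 mice at the right of each group. Tyms is lowest in the 3 flox vehicle libraries, Shmt2, Fpgs and Slc46a1 are highest in flox vehicle replicate 3 (156.7, 73.6 and 46.0 CPM), and Ggh spans 30.6 to 40.0 CPM in all libraries.

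The purine targets Atic and Gart were not called in any comparison. Atic carries the last steps of inosine monophosphate synthesis, and its inhibition lets AICAR accumulate. Its level was 48.4, 38.0 and 67.8 CPM in replicates 1, 3 and 4 of flox vehicle and 55.5, 46.8 and 56.1 CPM in KO vehicle replicates 1, 2 and 3. It was 62.5, 52.9 and 91.0 CPM in flox MTX replicates 1, 2 and 4 and 63.0, 65.8 and 61.8 CPM in KO MTX replicates 2, 3 and 4. The flox and KO replicates overlapped under both treatments, with replicate 4 the highest in each flox group. The difference between KO and flox was 0.04 under vehicle (95% interval -0.46 to 0.54) and -0.11 under MTX (-0.61 to 0.38). MTX against vehicle gave 0.42 in flox mice (95% interval -0.08 to 0.92, edgeR adjusted p = 0.217) and 0.27 in KO mice (-0.23 to 0.77, edgeR adjusted p = 0.819), where the 3 MTX libraries were above the 3 vehicle libraries. In the flox comparison Atic was called without flox vehicle replicate 4 (0.68, edgeR adjusted p = 0.044) and without flox MTX replicate 2 (0.59, edgeR adjusted p = 0.0962), and was at 0.03 without flox vehicle replicates 1 and 3.

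Gart, a trifunctional enzyme whose transformylase step needs folate, had the most even KO libraries of the 8 genes. It was at 49.2, 42.5 and 45.7 CPM in replicates 1, 3 and 4 of flox vehicle and at 32.4, 33.8 and 31.5 CPM in KO vehicle replicates 1, 2 and 3, without overlap. Under MTX it was at 40.3, 33.9 and 62.4 CPM in flox replicates 1, 2 and 4 and at 37.2, 37.5 and 36.6 CPM in KO replicates 2, 3 and 4, so the KO values fell inside the flox range. The log2 difference under vehicle was -0.49 ± 0.19 (SE), a fold of 1.41, with an edgeR adjusted p of 0.0695: it met the limit on p and missed the limit on fold change. Against flox vehicle replicate 4 alone it was -0.48 (95% interval -1.10 to 0.14, edgeR adjusted p = 0.315). Under MTX the difference was -0.29 (95% interval -0.70 to 0.11). Gart shares 1014 exon bases with the antisense gene Gm15964, which holds 437 counts over the 12 libraries, and the strand setting of the counting is not given in the sources used here.

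Shmt2 is the mitochondrial serine hydroxymethyltransferase, which splits serine to glycine and loads the carbon on folate. Its level was 65.9, 156.7 and 32.6 CPM in replicates 1, 3 and 4 of flox vehicle, and 32.0, 31.3 and 33.9 CPM in KO vehicle replicates 1, 2 and 3. Under MTX it was 34.4, 30.4 and 26.6 CPM in flox replicates 1, 2 and 4, and 37.5, 34.2 and 33.0 CPM in KO replicates 2, 3 and 4. Flox vehicle replicates 1 and 3 were above all other libraries, and replicate 4 was inside the range of KO vehicle. Shmt2 fell by 1.39 ± 0.41 (SE) in KO against flox under vehicle (edgeR adjusted p = 0.0270) and by 1.48 ± 0.41 with MTX in flox mice (edgeR adjusted p = 0.0313). Leaving out flox vehicle replicate 3 alone ended both calls, with differences of -0.60 (edgeR adjusted p = 0.102) and -0.69 (edgeR adjusted p = 0.115). Without replicates 1 and 3 the difference between KO and flox under vehicle was 0.00 (95% interval -0.40 to 0.39, edgeR adjusted p = 0.998) and that of MTX in flox mice was -0.09 (-0.48 to 0.30).

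Fpgs adds glutamates to folates and to MTX. It was at 34.8, 73.6 and 16.7 CPM in replicates 1, 3 and 4 of flox vehicle and at 14.3, 17.0 and 16.1 CPM in KO vehicle replicates 1, 2 and 3. Under MTX it was at 15.2, 13.2 and 11.3 CPM in flox replicates 1, 2 and 4 and at 12.1, 13.4 and 14.5 CPM in KO replicates 2, 3 and 4. As for Shmt2, flox vehicle replicates 3 and 1 were the 2 highest libraries, and replicate 4 lay between KO vehicle replicates 3 and 2. Fpgs fell by 1.40 ± 0.40 (SE) in KO against flox under vehicle (edgeR adjusted p = 0.0224) and by 1.66 ± 0.40 with MTX in flox mice (edgeR adjusted p = 0.0180). Leaving out flox vehicle replicate 3 kept both calls at smaller differences of -0.71 and -0.96. Without flox vehicle replicates 1 and 3 these differences were -0.07 (95% interval -0.56 to 0.41, edgeR adjusted p = 0.862) and -0.33 (-0.81 to 0.15, edgeR adjusted p = 0.597). Over the 12 libraries the log2 levels of Fpgs and Shmt2 had a Pearson r of 0.97, and over the 9 libraries outside flox vehicle r was 0.28. The exons of Fpgs share 61 bases with those of Eng on the opposite strand, and those of Shmt2 share 32 bases with Ndufa4l2.

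Ggh, the lysosomal hydrolase that removes the glutamates Fpgs adds, varied least of the 8 genes, from 30.6 to 40.0 CPM over all libraries, a ratio of 1.31. Group means were 34.3 ± 3.24 CPM (SD, n = 3) in flox vehicle, 33.2 ± 1.48 in KO vehicle, 36.0 ± 3.49 in flox MTX and 34.2 ± 3.51 in KO MTX mice. Over the 4 comparisons, all limits of the 95% intervals of its log2 differences lay between -0.35 and 0.34. Within a library, the log2 ratio of Fpgs to Ggh counts is free of the scaling between libraries. That ratio was 0.12, 0.95 and -0.98 in flox vehicle replicates 1, 3 and 4, and -1.24, -0.89 and -1.09 in KO vehicle replicates 1, 2 and 3. It averaged -1.45 ± 0.35 (SD, n = 3) in flox MTX and -1.35 ± 0.24 in KO MTX mice. Fpgs reads were more numerous than Ggh reads in flox vehicle replicates 1 and 3 only, among the 12 libraries.

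Slc46a1, the proton-coupled folate transporter, was the carrier that was called. It was at 26.5, 46.0 and 20.7 CPM in replicates 1, 3 and 4 of flox vehicle and at 11.7, 10.8 and 10.6 CPM in KO vehicle replicates 1, 2 and 3. Under MTX it was at 22.0, 9.64 and 21.5 CPM in flox replicates 1, 2 and 4 and at 13.3, 9.32 and 14.5 CPM in KO replicates 2, 3 and 4. All flox vehicle values were above all KO vehicle values, also that of replicate 4. Slc46a1 fell by 1.49 ± 0.35 (SE) in KO against flox under vehicle (edgeR adjusted p = 0.00942). Against flox vehicle replicate 4 alone the difference was -0.90 (95% interval -1.82 to 0.01, edgeR adjusted p = 0.212), and the call was lost. MTX against vehicle in flox mice gave -0.81 (95% interval -1.57 to -0.06, edgeR adjusted p = 0.12), which was not called, and -0.22 without flox vehicle replicates 1 and 3 (-1.16 to 0.72). With library size as the only scaling it was called there (-1.07, edgeR adjusted p = 0.0458).

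Slc19a1, the reduced folate carrier and main route of MTX into most cells, was not called in any comparison. It was at 23.3, 18.4 and 28.2 CPM in replicates 1, 3 and 4 of flox vehicle and at 22.6, 16.7 and 14.7 CPM in KO vehicle replicates 1, 2 and 3. Under MTX it was at 34.0, 15.1 and 35.4 CPM in flox replicates 1, 2 and 4 and at 16.1, 14.0 and 20.2 CPM in KO replicates 2, 3 and 4. Flox MTX replicates 1 and 4 had the 2 highest Slc19a1 values of all libraries, and flox MTX replicate 2 was among the KO values for Slc19a1 and for Slc46a1. KO against flox under MTX gave -0.75 for Slc19a1 (95% interval -1.43 to -0.07, edgeR adjusted p = 0.173). Without flox MTX replicate 2, both carriers were called lower in KO mice under MTX, Slc19a1 by -1.05 (edgeR adjusted p = 0.029) and Slc46a1 by -0.81 (edgeR adjusted p = 0.0899). In that fit 4064 of all 19532 genes were called, 1985 of them lower, against 0 with all 12 libraries. Flox MTX replicate 2 had the highest macrophage sum of the flox MTX libraries (7614 CPM, against 4256 and 1293 in replicates 1 and 4) and the lowest adipocyte sum (39825 CPM, against 66526 and 78835). Over the 9 libraries outside flox vehicle, the log2 levels of the 2 carriers had a Pearson r of 0.93 (0.55 over 12), as a description of libraries from 3 groups. The part of the cell makeup in these levels was not tested.

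**Figure D3:**
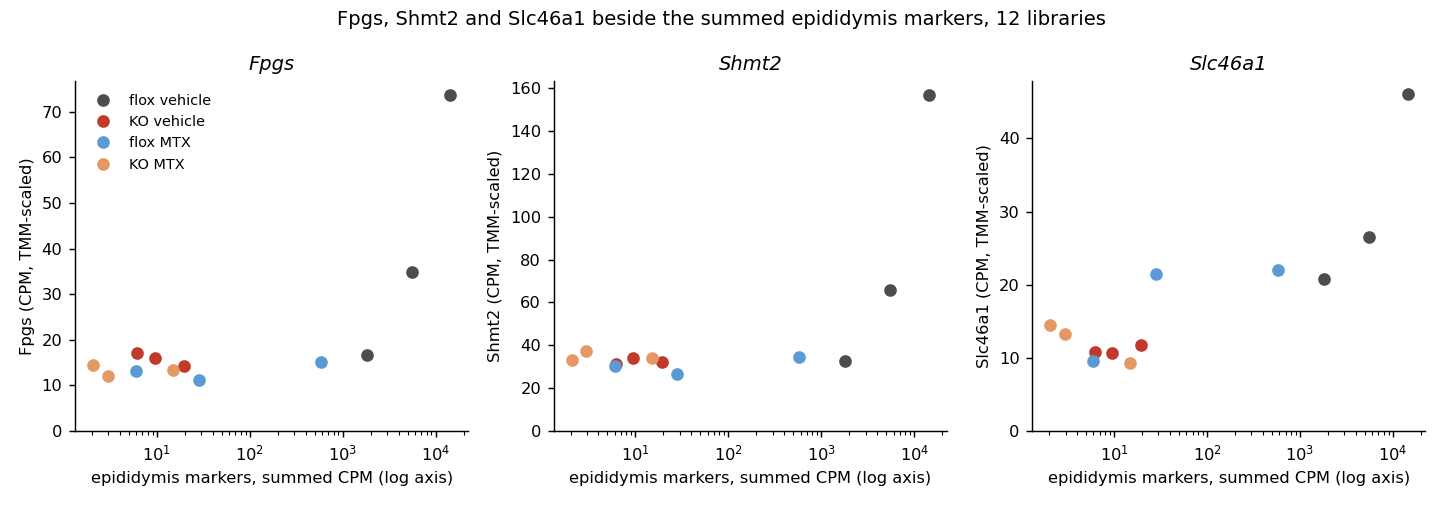
TMM-scaled CPM (y axes) of Fpgs, Shmt2 and Slc46a1 against the summed CPM of 25 epididymis markers (x axis, log scale) in 12 libraries, coloured by group. In the flox vehicle group all 3 genes and the marker sum have the order replicate 3, 1, 4, from 14408 to 1821 CPM of the markers, while the other 9 libraries, at 2.05 to 577 CPM of the markers, have at most 17.0 CPM of Fpgs, 37.5 CPM of Shmt2 and 22.0 CPM of Slc46a1.

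The 3 genes that fell shared the order of the epididymis markers within the flox vehicle group, replicate 3 highest and replicate 4 lowest. This order was found in 3 of the 8 genes (37.5%), and in 28.1% of all 18702 genes tested. In the epididymis list, 12 of 25 genes were above 3 counts in every flox vehicle library, Crisp1 was the most abundant in each group, and 5 of the 25 were at 0 in all KO MTX libraries. Of its 14 genes that could be tested, 10 were called lower in KO against flox under vehicle and 10 with MTX in flox mice, beside 17.8% and 16.1% of all genes. The testis germ cell markers had another order in flox vehicle, at 592.7, 469.5 and 204.9 CPM in replicates 1, 3 and 4. The part of epididymis or testis RNA in the levels of Fpgs, Shmt2 and Slc46a1 was not tested. Leaving the marker genes themselves out of the fit changed no call of the 8 genes.

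Levels were compared between genes per kb of exon. In KO vehicle mice, on the union of all exons, Ggh was highest at 16.9 ± 0.754 CPM per kb (SD, n = 3), before Shmt2 at 10.4 ± 0.422, Atic at 6.61 ± 0.653 and Gart at 6.33 ± 0.221. Fpgs at 4.16 ± 0.362, Slc19a1 at 3.87 ± 0.88 and Slc46a1 at 3.59 ± 0.196 followed, and Tyms was lowest at 2.25 ± 0.263 CPM per kb. Atic and Gart did not differ beyond their spread, nor did Slc19a1 from Fpgs or from Slc46a1. Tyms was lowest in all 4 groups. In flox vehicle mice Shmt2 led at 27.4 ± 20.7 CPM per kb, a spread that spans most of the order. Atic has exons of 7985 bases in all against 2845 in its longest coding transcript. On that transcript's length it moved to the top in KO vehicle, flox MTX and KO MTX mice (18.6, 24.2 and 22.3 CPM per kb), and Tyms stayed last.

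The other genes of the pathway were taken from 6 lists of 36 genes, of which 35 could be tested. In KO against flox under vehicle, 19 of the 35 were called, 5 higher and 14 lower, beside 31.7% of all genes called, 13.9% higher and 17.8% lower. Their median log2 fold change was -0.36, and that of all genes was -0.06. MTX in flox mice gave 11 calls of 35, 1 higher and 10 lower, beside 24.2% of all genes, 8.09% higher and 16.1% lower. Between KO and flox under MTX edgeR called 0 of 35 (9 at an unadjusted p below 0.05, and 6 called by DESeq2), and for MTX in KO mice 0 of 35 (1 at an unadjusted p below 0.05). Of all 18702 genes, 4576 and 1491 were at an unadjusted edgeR p below 0.05 in these comparisons, and DESeq2 called 2740 of 34600 in the first. Without flox vehicle replicates 1 and 3, where the flox vehicle group is 1 library, the medians of the 35 were -0.45 under vehicle and -0.14 with MTX. Those of all genes were -0.012 and 0.072.

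All 3 enzymes of serine synthesis and 5 of 10 genes of the mitochondrial folate cycle were called lower in KO than in flox mice under vehicle, beside 17.8% of all genes. With replicates 1 and 3 of flox vehicle left out, the median log2 fold changes were -1.11 for serine synthesis and -0.44 for the mitochondrial list. They were -1.55 and -0.79 with all 12 libraries. Psph, the phosphatase of the last step, was at -1.89 ± 0.42 (SE, edgeR adjusted p = 0.00724), and at -1.11 without those libraries. Phgdh, which opens the pathway, was at 481 to 541 CPM in flox vehicle and 95.6 to 282 CPM in KO vehicle mice, without overlap, and its difference of -1.55 was -1.64 without flox vehicle replicates 1 and 3 (edgeR adjusted p = 0.195). Phgdh was also lower under MTX, at 302 to 830 CPM in flox and 73.3 to 193 CPM in KO mice (-1.71 ± 0.50, edgeR adjusted p = 0.11, not called). Its replicates did not overlap there, beside 26.8% of all genes. In the mitochondrial list, MTX in flox mice also called 5 of 10 genes lower, beside 16.1% of all genes. None was called higher in either comparison, with medians of -0.79 and -0.45. Without flox vehicle replicates 1 and 3 the median with MTX was -0.125. Gldc, the decarboxylase of the glycine cleavage system, had the largest difference of the list. It was at 105.9, 295.7 and 37.1 CPM in replicates 1, 3 and 4 of flox vehicle, at 2.77 to 3.30 CPM in KO vehicle and at 15.7, 1.64 and 2.00 CPM in flox MTX replicates 1, 2 and 4. The difference of -5.60 ± 0.97 (SE, edgeR adjusted p = 0.00359) was -3.61 without flox vehicle replicates 1 and 3 (edgeR adjusted p = 0.0825). The 5 mitochondrial genes called under vehicle (Gldc, Mthfd2, Mthfd1l, Amt and Mthfd2l) followed the order of the epididymis markers in flox vehicle, as did 11 of the 35 other folate and methotrexate genes (31.4%) and 28.1% of all genes. Flox MTX replicate 1, the library with 577 CPM of those markers, had the highest Gldc outside flox vehicle.

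In the cytosolic list, 2 of 9 genes were called lower under vehicle and 1 higher, beside 17.8% and 13.9% of all genes. Ftcd, which feeds histidine carbons into the cycle, had the largest difference (-3.62 ± 0.80, edgeR adjusted p = 0.00696, and -1.45 with an edgeR adjusted p of 0.222 without flox vehicle replicates 1 and 3), Mtr, the methionine synthase, was at -0.80, and Mthfs was at 0.78. When replicates 1 and 3 of flox vehicle were left out, Mtr was at -0.46 and Mthfs at 0.68. The median of the list was then -0.25, against -0.22 with all 12 libraries. With MTX in flox mice only Ftcd was called in that list, beside 16.1% of all genes called lower (-2.82 ± 0.76, edgeR adjusted p = 0.0275). Its difference was -0.65 without flox vehicle replicates 1 and 3. Of 4 further enzymes of purine synthesis, Pfas (-1.20 ± 0.32, edgeR adjusted p = 0.0155) and Ppat (-0.77 ± 0.25, edgeR adjusted p = 0.0384) were called lower under vehicle. Both were again called lower with MTX in flox mice, at -1.40 and -0.87, and none was called higher. Of all genes, 17.8% and 16.1% were called lower in these comparisons. Pfas followed the order of the epididymis markers. Without flox vehicle replicates 1 and 3 its differences were -0.26 under vehicle and -0.46 with MTX, and those of Ppat were -0.55 and -0.65. The medians of the 4 were then -0.275 and -0.197, against -0.505 and -0.399 with all 12 libraries.

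The 2 folate receptors moved apart. Folr2, known from tissue macrophages, rose by 2.96 ± 0.62 (SE) in KO against flox under vehicle (edgeR adjusted p = 0.0058) and by 2.10 ± 0.60 with MTX in flox mice (edgeR adjusted p = 0.0338), whereas Folr1 fell by 1.77 ± 0.49 under vehicle (edgeR adjusted p = 0.0192). Folr2 was at 4.99, 3.30 and 10.2 CPM in replicates 1, 3 and 4 of flox vehicle, at 30.0 to 68.5 CPM in KO vehicle, at 26.7, 44.4 and 7.57 CPM in flox MTX replicates 1, 2 and 4 and at 44.8 to 83.4 CPM in KO MTX mice. Folr1 was low, at 3.04 to 6.77 CPM in flox vehicle and 1.26 to 1.78 CPM in KO vehicle mice, without overlap, beside 48.1% of all genes. The macrophage list was called higher in 18 of 18 genes under vehicle and in 16 of 18 with MTX in flox mice, beside 13.9% and 8.09% of all genes. In the fit with flox vehicle replicate 4 alone, the medians of that list were 2.51 and 1.55, against 2.84 and 1.89 with all 12 libraries. Flox MTX replicate 4 had low values of Folr2 and of that list. The part of macrophage numbers in Folr2 was not tested. Both Folr2 calls were lost without flox vehicle replicates 1 and 3 (2.24 with an edgeR adjusted p of 0.174, and 1.38 with 0.576), and so was that of Folr1 (-1.92, edgeR adjusted p = 0.116).

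Among 7 genes of MTX efflux and oxidation, 3 were called higher and 1 lower in KO against flox under vehicle, beside 13.9% and 17.8% of all genes. Abcg2, an efflux pump for MTX, rose by 1.44 ± 0.19 (SE, edgeR adjusted p = 0.00276), from 11.2, 12.9 and 15.7 CPM in replicates 1, 3 and 4 of flox vehicle to 37.9, 39.6 and 30.4 CPM in KO vehicle replicates 1, 2 and 3. Its KO replicates did not overlap the flox replicates under vehicle, beside 48.1% of all genes. Against flox vehicle replicate 4 alone, with no spread from that group, its difference was 1.20. Under MTX Abcg2 was at 21.5, 15.0 and 15.9 CPM in flox replicates 1, 2 and 4 and at 27.5, 25.2 and 32.4 CPM in KO replicates 2, 3 and 4. These did not overlap either, beside 26.8% of all genes (0.70 ± 0.19, edgeR adjusted p = 0.106, not called). Abcc5 and Abcc4, further exporters, rose by 0.64 and 0.59 under vehicle, and Abcc3 fell by 1.27. They were at 0.48, 0.46 and -0.49 without flox vehicle replicates 1 and 3, and none of the 3 was called. With MTX in flox mice Abcc3 was the single call of the list (-1.08 ± 0.31, edgeR adjusted p = 0.0343), beside 16.1% of all genes called lower. Its difference was -0.30 without flox vehicle replicates 1 and 3. Aox1, which oxidises MTX to 7-hydroxymethotrexate, had the largest difference of the list between KO and flox under MTX, at -1.01 ± 0.36 (edgeR adjusted p = 0.136, not called).

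**Figure D4:**
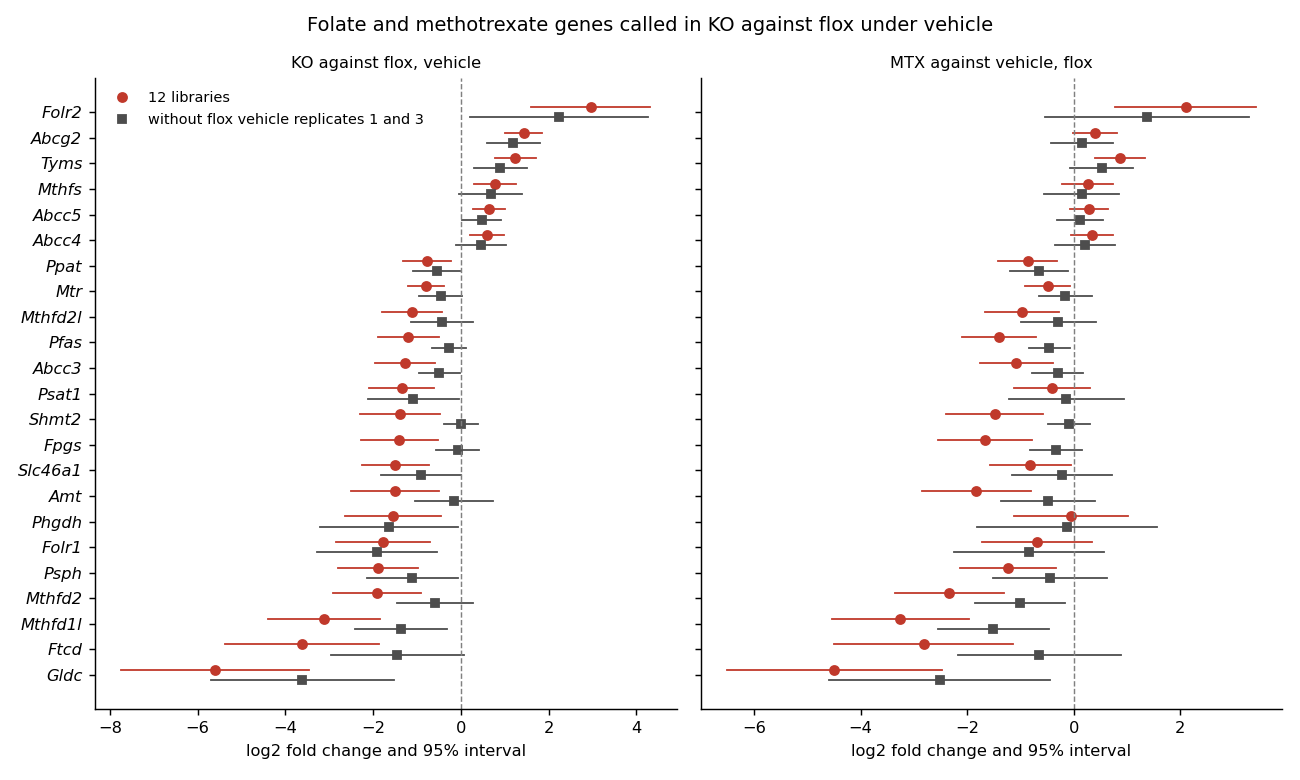
Log2 fold changes (x axes, with 95% intervals) for KO against flox under vehicle (left) and MTX against vehicle in flox mice (right), for the 23 genes called in the first of these, from the fit of 12 libraries (circles) and without flox vehicle replicates 1 and 3 (squares). The squares of Fpgs and Shmt2 lie at -0.07 and 0.00 in the left panel, while those of Phgdh, Abcg2 and Tyms stay at -1.64, 1.20 and 0.90.

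**Figure D5:**
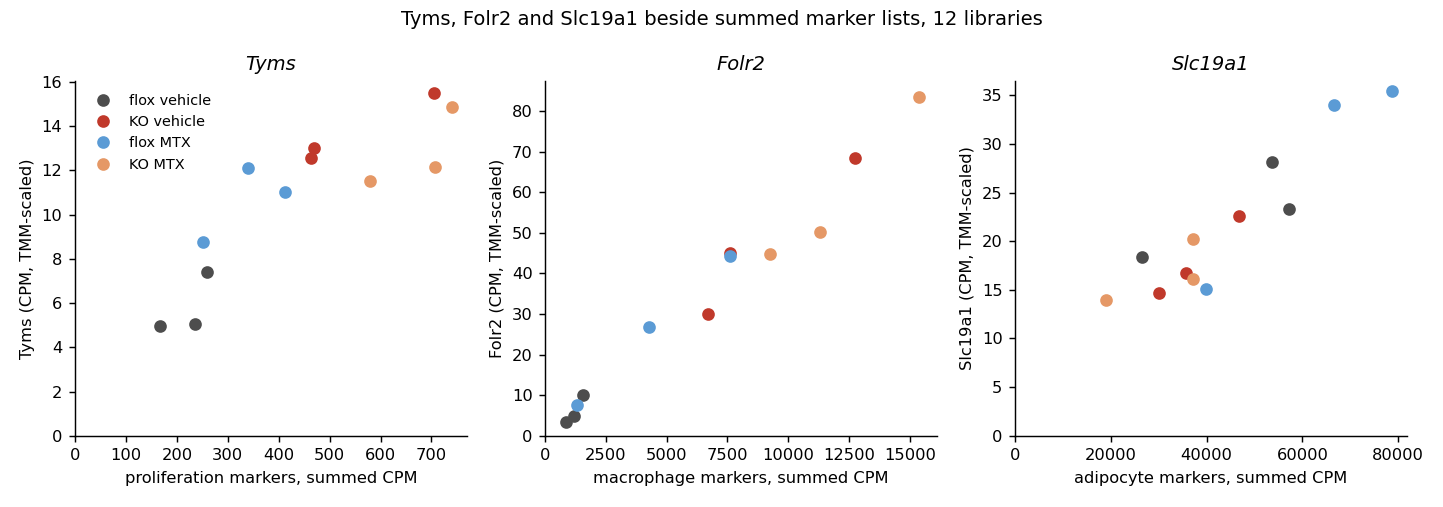
TMM-scaled CPM (y axes) of Tyms, Folr2 and Slc19a1 against the summed CPM (x axes) of proliferation, macrophage and adipocyte markers in 12 libraries, coloured by group. Tyms and Folr2 are low where their list is low (flox vehicle), and Slc19a1 is highest in the flox MTX libraries with 66526 and 78835 CPM of adipocyte markers.

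Genes with the pattern most like each of the 8 were listed by the Pearson r of log2 CPM over 12 libraries, as a description. Libraries share their group, so a high r can be a difference between groups. Tyms was most like Lxn, Capzb and Fstl1 (r of 0.98 for each), Atic like Gnptab and Vps35 (0.97 and 0.96) and Gart like Trub2, Fam149b and St3gal2 (0.96, 0.95 and 0.95). Fpgs was most like Tle2, Gm15545 and Toe1 (0.99, 0.99 and 0.98) and Shmt2 like Kcnd1, Polr3e and Arfgap1 (0.99, 0.98 and 0.98). For these pairs r over the 9 libraries outside flox vehicle was 0.72 to 0.84 for Fpgs and 0.55 to 0.78 for Shmt2. Slc46a1 was most like Cth, Slc31a1 and Adh5 (0.99, 0.99 and 0.98, and 0.95 to 0.98 over the 9 libraries), and Slc19a1 like Dhx32, Acad9 and Kctd3 (0.97 for each, also over the 9). Ggh had the lowest values, with Slc4a1ap, Etv4 and Apeh at 0.86, 0.84 and 0.82.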

How the data were processed

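RNA of eWAT was measured by RNA-Seq in 12 libraries (3 per group), each read as 1 mouse. The deposited values are raw read counts per Ensembl gene, which the authors made by trimming (Trimmomatic 0.36), STAR 2.5.2b alignment to GRCm38 and featureCounts (Subread 1.5.2), per the submitters' processing notes. The methods name ribodepletion, the labels polyA RNA, and the sources give 2 read lengths. The strand setting is not given in the sources used here. From these counts, edgeR 4.0.16 (R 4.3.3) gave TMM factors, kept 18702 of 49315 genes (filterByExpr by group) and fitted 1 quasi-likelihood model with 1 coefficient per group. A call needed a 1.5-fold change and a p below 0.1 after adjustment by Benjamini-Hochberg. In simulated counts of 18702 genes for KO against flox under vehicle, 200 genes were changed 4-fold. Of these edgeR called 142, with 11 unchanged genes, and DESeq2 1.42.0 called 166, with 83 unchanged genes. The 8 genes and all lists were chosen with earlier results of these data known. Named genes are the 8, list genes that were called or had the largest change, and the 3 nearest genes of each by r (log2 CPM, prior count 2), of which 1 is not reported here. Levels of 3 mice against 3 allow no exact permutation p below 0.1, so none is given. Alternatives were DESeq2, other scalings, filters, limits and sets of libraries, and the replicate number as a block. The numbers do not pair the mice (median residual r of 0.0353 in 12 same-numbered pairs and 0.0112 in 42 others). Replicates of a group differed by more than sampling noise (lowest chi-square 14.1 times its degrees of freedom). Replicates are read as separate mice, and the methods do not say whether RNA was pooled. Depth was 19495310 to 23976469 counts, which limits counting error only.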

Additional observations from a re-analysis of the deposited data

Results flagged for a closer look

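Mthfd1l, the mitochondrial formyltetrahydrofolate synthetase, was the single call among the 43 folate and methotrexate genes tested in the test of whether MTX acted differently in KO and flox mice. The interaction was 3.59 ± 0.79 on the log2 scale (SE, edgeR adjusted p = 0.097). Its level was 60.2, 134.2 and 21.4 CPM in replicates 1, 3 and 4 of flox vehicle, 7.51 to 9.79 CPM in KO vehicle, 3.31 to 10.5 CPM in flox MTX and 9.53 to 12.1 CPM in KO MTX mice. The 3 flox vehicle libraries were thus above the other 9, in the order of their epididymis markers (14408, 5522 and 1821 CPM in replicates 3, 1 and 4), whose part in the result was not tested. The interaction was called in 2 of 12 fits that left out 1 library, where it ranged from 2.77 to 4.01, and in 6 of 10 other alternatives. Without flox vehicle replicates 1 and 3 it was 1.84 (edgeR adjusted p = 0.546).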

How the results depend on the processing

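No call of the 8 genes turned its direction under any alternative. Of their 7 calls, all were kept with DESeq2, with RLE factors, with library size only, without a filter, under a filter of 10 counts in all libraries, without a fold limit and without the epididymis and testis marker genes. A log2 fold limit of 1.5 left 0 of 4 calls for KO against flox under vehicle, beside 3026 of all 18702 genes. For MTX in flox mice it left 1 of 3, beside 2791 of all genes. The 6 libraries of that comparison alone also left 1, beside 2167 of 17805. Without flox vehicle replicates 1 and 3, 1 library is left in that group and the spread comes from the others. The median log2 fold change of the 8 genes was then -0.215 for KO against flox under vehicle and 0.004 for MTX in flox mice. Those of all genes were -0.012 and 0.072. DESeq2 called 1 gene in the interaction. Leaving out 1 library at a time gave 0 to 2 calls for KO against flox under MTX. The 2 came without flox MTX replicate 2, where 4064 of all 19532 genes were called. MTX in flox mice gave 2 to 5 calls. There were 2 without flox vehicle replicate 3, beside 2219 of all 19024 genes, and 5 without replicate 4, beside 5995 of 19402. The interaction gave 0 to 3 calls. The 3 came without flox vehicle replicate 4, beside 1371 of 19402. In these fits the count over all genes thus moved as well. With the replicate block, Shmt2 was no longer called for MTX in flox mice (-1.13, edgeR adjusted p = 0.112), the other 6 calls stood, and Fpgs was at -0.081 between KO and flox under MTX. The causes were not tested.

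Of the other folate and methotrexate genes, KO against flox under vehicle called 19, beside 5924 of all 18702 genes. With a log2 fold limit of 1.5 it called 9, beside 3026 of all genes. Without flox vehicle replicates 1 and 3, where that group is 1 library, their median was -0.45, against -0.012 for all genes. Under MTX the count of 0 became 6 with DESeq2, beside 2740 of all 34600 genes. It was 1 without a filter, beside 875 of 34653, and 2 with the filter of 10 counts, beside 1491 of 14132. Without 1 library it was 0 to 9, beside 0 to 4064 of all genes. For MTX in flox mice the count of 11, beside 4528 of all 18702 genes, became 6 with the log2 limit, beside 2791. It was 5 in the 6 libraries alone, beside 2167 of 17805, and 6 with the replicate block, beside 2771 of 18702. Without 1 library it was 5 to 13, beside 2219 to 5995 of all genes. Without flox vehicle replicates 1 and 3 the median of these genes was -0.137, against 0.072 for all genes. In the interaction the count of 1, beside 185 of all genes, became 7 with DESeq2, beside 1225 of 34600, and 3 without a filter, beside 472 of 34653. It was 0 with the filter of 10 counts, with the replicate block or without the marker genes, beside 1 of 14132, 0 of 18702 and 134 of 18678. Without 1 library it was 0 to 7, beside 5 to 1371 of all genes. Without flox vehicle replicates 1 and 3 the median of these genes was 0.154, against -0.079 for all genes. Over all genes, edgeR called 0 and DESeq2 2740 between KO and flox under MTX, 0 and 276 for MTX in KO mice, and 185 and 1225 in the interaction. Library size as the only scaling moved the median of all genes for MTX in flox mice from 0.05 to -0.15 on the log2 scale and the share of higher calls from 33.4% to 17.5%.

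Values that turned sign were small and not called. For KO against flox under vehicle, Atic (0.04) was at -0.36 and Ggh (-0.05) at 0.018 without flox vehicle replicates 1 and 3, and they ranged from -0.14 to 0.30 and from -0.092 to 0.032 without 1 library. Between KO and flox under MTX, Atic and Ggh were at 0.086 and 0.11 with library size only, and Fpgs (0.02) was at -0.003 with that filter of 10 counts and at -0.012 in the 6 libraries alone. Without 1 library Atic ranged there from -0.27 to 0.15, Gart from -0.47 to 0.007, Fpgs from -0.08 to 0.15 and Ggh from -0.15 to 0.014. For MTX in flox mice Gart (-0.01) was at 0.021 without a filter and at 0.001 without flox vehicle replicates 1 and 3, and Ggh (0.07) was at -0.14 with library size only. Without 1 library Gart ranged from -0.30 to 0.18 and Ggh from -0.003 to 0.15. For MTX in KO mice Tyms ranged from -0.21 to 0.011, Ggh from -0.03 to 0.12 and Slc19a1 from -0.26 to 0.083. In the interaction, Atic and Ggh were at 0.049 and 0.16 with library size only, Atic at 0.24 without flox vehicle replicates 1 and 3, and without 1 library they ranged from -0.41 to 0.088 and from -0.11 to 0.04.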
